A study of Capra hircus with 6 samples.

Results

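The heat shock and J domain chaperone genes of the goat hypothalamus comprise the HSP70 (HSPA), small heat shock protein (HSPB), HSP90 and DNAJ genes together with HSPD1, HSPE1 and HSPH1. Members were found by a rule on the goat gene symbol, which itself uses no measured value, and 66 of the 20225 genes in the mRNA table met the rule. They were 11 HSPA, 6 HSPB, 3 HSP90, 4 DNAJA, 12 DNAJB and 27 DNAJC genes, and HSPD1, HSPE1 and HSPH1. DNAJB8, HSPB1 and HSPB7 also have symbols that meet the rule and were not analysed here.

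The hypothalamus of 6 female Anhuai goats was sequenced, with 1 strand-specific, rRNA-depleted, paired-end library per goat. The 3 pubertal goats were 4.5 to 5 months old and were sampled in the late follicular phase of their cycle. The 3 prepubertal goats were 2.5 to 3 months old and were kept on the same farm. No goat carried an engineered allele or received a treatment that separates the stages, so stage, age and phase of the cycle cannot be told apart. The expression level is given as FPKM, fragments normalized for transcript length and for the number of mapped fragments, summed over the transcripts of a gene.

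Chaperones bind unfolded or partly folded proteins and help them to reach, keep or regain their shape. HSP70 proteins do so in cycles of ATP hydrolysis that J domain proteins start and that nucleotide exchange factors such as the HSP110 proteins complete, and HSP90 takes over many clients from HSP70. Some members are induced by heat shock factor 1 when proteins unfold, others are made all the time, and neurons, with their long axons and busy synapses, rely on constitutive members such as HSPA8 and its J domain partners DNAJC5 and DNAJC6.

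The libraries were alike in the number of genes above 0 FPKM, between 17062 and 17428. Neuronal and astrocyte markers were present in every library, with SNAP25 at 466 to 556 FPKM and GFAP at 2268 to 2698 FPKM, and the hypothalamic neuropeptide gene PMCH was at 673 to 2173 FPKM. An exact 0 in this table is not evidence of absence, because the hypothalamic neuropeptide gene AVP was listed at 0 in all libraries and the myelin gene MBP in prepubertal replicate 1. OXT, HCRT, TUBB3, CLDN5 and PRL were not analysed here.

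Of the 66 members, 62 reached a mean level of 0.1 FPKM and were tested. The other 4 were DNAJB3 and DNAJC5G, which were listed at 0 in every library, and DNAJC5B and HSPB9, whose mean was under 0.1 FPKM. Most members were well expressed. There were 15 members with a mean of at least 100 FPKM, 32 between 10 and 100 FPKM, 11 between 1 and 10 FPKM, and 4 between 0.1 and 1 FPKM. The median level of the tested members was 38.2 FPKM, against 9.78 FPKM for all 16397 genes tested.

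Few of them differed between the stages. At an unadjusted p under 0.05 (limma), 2 of 62 members differed between the stages, both lower in the pubertal goats, namely the small heat shock protein gene HSPB3 and the endoplasmic reticulum gene DNAJC10. The same rule called 5.16% of all genes, 3.51% as higher and 1.65% as lower in pubertal goats. That split between directions depends on the scaling, with 575 genes called higher and 271 lower as deposited but 462 higher and 377 lower after quantile normalization. After Benjamini-Hochberg adjustment limma called 0 of 62 members and 0 of 16397 genes (0.0%). The smallest p that an exact permutation test of 3 against 3 libraries can give is 0.1, so single genes were tested in the model over all genes. These p-values measure the spread between goats.

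**Figure D1:**
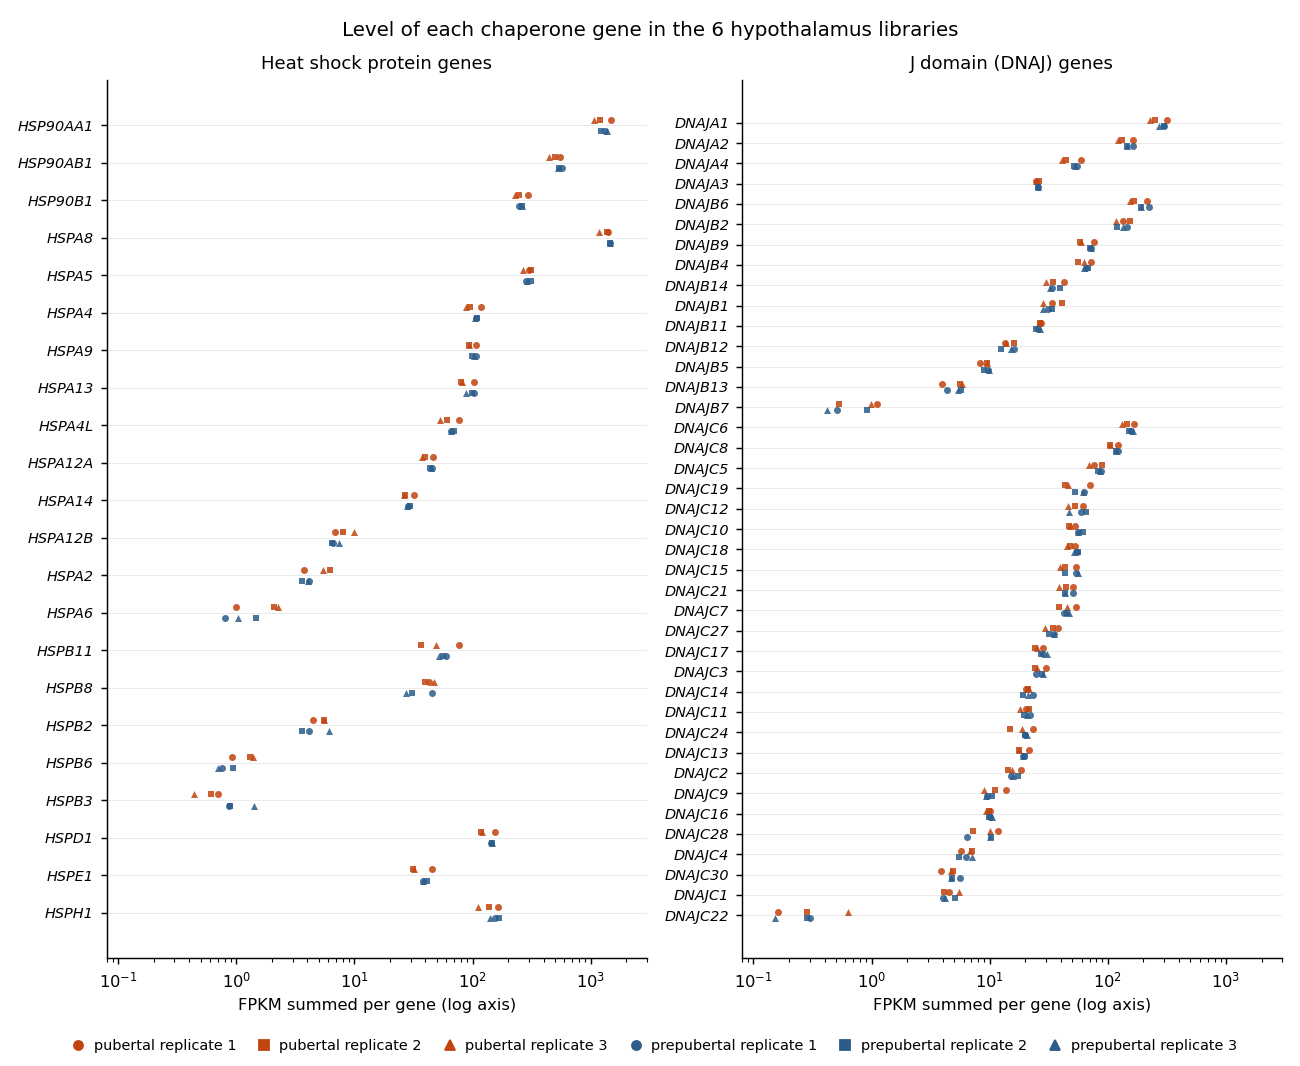
Level of the 62 tested chaperone genes in each of the 6 libraries, as FPKM summed per gene on a log axis, with heat shock protein genes on the left and J domain genes on the right. Each point is 1 library, pubertal in orange and prepubertal in blue, and the shapes give the replicate number. Levels run from HSPA8 with a mean of 1382 FPKM to DNAJC22, which was at 0.626 FPKM or less, while the 2 stages lie close together for nearly every gene.

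HSPA8, the constitutive cytosolic HSP70 that also strips clathrin from synaptic vesicles, was the most abundant member. Its level was 1394, 1365 and 1184 FPKM in pubertal replicates 1 to 3 and 1450, 1452 and 1449 FPKM in prepubertal replicates 1 to 3. All 3 pubertal libraries lay below all 3 prepubertal ones, whose SD was only 1.45 FPKM against 114 FPKM in the pubertal group. The difference was -0.15 on the log2(FPKM + 1) scale with a standard error of 0.13 and did not pass the test (limma, adjusted p = 0.962).

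HSPA5, or BiP, the HSP70 of the endoplasmic reticulum, followed at 303, 315 and 265 FPKM in pubertal and 286, 311 and 287 FPKM in prepubertal libraries. The stages overlapped and their means were both 295 FPKM. HSPA4, an HSP110-type nucleotide exchange factor of the cytosol, was measured at 117, 94.9 and 87.6 FPKM in pubertal and 107, 110 and 104 FPKM in prepubertal libraries. Pubertal replicate 1 held the highest value of HSPA4 and the other pubertal libraries the lowest. The mitochondrial HSPA9 and the microsomal HSPA13 had means of 101 and 92.4 FPKM.

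HSPA6 is the strictly heat-induced HSP70 of the list. It was at 0.996, 2.07 and 2.25 FPKM in pubertal and 0.811, 1.48 and 1.03 FPKM in prepubertal libraries. Its groups overlapped, and the difference of 0.38 (SE 0.21, 95% interval -0.10 to 0.86) on the log2(FPKM + 1) scale was the largest positive one among the members but did not pass the test (limma, adjusted p = 0.962). HSPA8 exceeded HSPA6 between 527 and 1788 times in single libraries. The symbols HSPA1A and HSPA1B, the classical inducible HSP70 genes, were not among the symbols used to choose members. The locus HSP70.1, whose synonym is hspA1A, was listed at 0 in all 6 libraries, and the locus LOC102177850, whose synonym is HSPA1L, was at 4.01 to 5.16 FPKM. HSP70 and HSP90 genes share long stretches of sequence with their paralogs, so the division of fragments among them is uncertain.

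All 3 HSP90 genes were abundant and none passed the test. HSP90AA1, the stress-inducible cytosolic form, was at 1497, 1187 and 1074 FPKM in pubertal and 1326, 1220 and 1374 FPKM in prepubertal libraries. The pubertal libraries enclosed the whole prepubertal range. The difference of -0.07 (SE 0.16) on the log2(FPKM + 1) scale did not pass the test (limma, adjusted p = 0.979) and became 0.03 when pubertal replicate 3 was left out. HSP90AB1, the constitutive cytosolic form, was at 545, 501 and 440 FPKM in pubertal and 577, 540 and 527 FPKM in prepubertal libraries. Here only pubertal replicate 1 reached into the prepubertal range. HSP90B1, the form of the endoplasmic reticulum also called GRP94, was at 293, 249 and 229 FPKM in pubertal and 249, 263 and 261 FPKM in prepubertal libraries.

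The alpha form was thus above the beta form in every library, by a ratio of 2.26 to 2.75. HSPA8 was above HSP90AA1 in 5 of 6 libraries, with a mean log2 ratio of 0.12 and an SD of 0.12, so that these neighbours in the order of levels did not differ beyond their spread. HSP90AA1 and HSP90AB1 did, with a mean log2 ratio of 1.29 and an SD of 0.11. Together HSPA8 and HSP90AA1 held 39.6 to 41.6% of the members' summed FPKM, and the 10 most abundant genes held 69.0 to 70.8%. These shares take HSPE1 by its gene identifier, at a mean of 37.5 FPKM. The transcript that RefSeq assigns to HSPE1 had a mean of 328 FPKM and is not in the sum. Of 6 ratios between members that were computed, the ratio of HSPA8 to HSPA5 was the 1 whose stages did not overlap. It was 4.59, 4.33 and 4.46 in pubertal and 5.07, 4.67 and 5.05 in prepubertal libraries.

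HSPD1 encodes the mitochondrial chaperonin HSP60, a barrel in which proteins fold. Its level was 156, 119 and 121 FPKM in pubertal and 143, 146 and 147 FPKM in prepubertal libraries. Pubertal replicate 1 was the highest library and the other pubertal libraries were the lowest. HSPE1 encodes HSP10, the lid of that barrel, and was at 45.1, 31.2 and 32.0 FPKM in pubertal and 37.8, 40.9 and 38.1 FPKM in prepubertal libraries by its gene identifier. That identifier holds a transcript of 2582 nt, whereas the transcript accession that RefSeq assigns to HSPE1, of 729 nt, was filed under another gene identifier. The shorter transcript was at 362, 265 and 283 FPKM in pubertal and 377, 356 and 324 FPKM in prepubertal libraries, and its difference of -0.23 (SE 0.13) on the log2(FPKM + 1) scale did not pass the test either (limma, adjusted p = 0.962). The level of HSPE1 is therefore uncertain. HSPD1 was 3.46 to 3.86 times the level of HSPE1 by gene identifier and 0.378 to 0.453 times the level of the shorter transcript.

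HSPH1, the heat-inducible HSP110, exchanges the nucleotide on HSP70 and was among the abundant members. It was at 165, 137 and 110 FPKM in pubertal and 156, 166 and 140 FPKM in prepubertal libraries. The stages overlapped, and the difference of -0.18 (SE 0.15) on the log2(FPKM + 1) scale did not pass the test (limma, adjusted p = 0.962). It was -0.32 without pubertal replicate 1, which passed the unadjusted threshold, and -0.03 without pubertal replicate 3.

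Small heat shock proteins hold unfolded proteins in solution without ATP, and most of the HSPB members were at low levels here. CRYAB, a small heat shock protein gene outside the symbol rule, had a mean of 151 FPKM. HSPB11, also known as IFT25 and a part of the transport machinery of cilia, was at 77.1, 36.9 and 48.9 FPKM in pubertal and 59.6, 56.2 and 52.4 FPKM in prepubertal libraries. Pubertal replicates 1 and 2 were the highest and the lowest library. HSPB8, which works with BAG3 in the selective removal of damaged proteins, was at 42.5, 39.6 and 47.4 FPKM in pubertal and 45.4, 30.7 and 27.4 FPKM in prepubertal libraries. Its groups overlapped through prepubertal replicate 1, and the difference of 0.34 (SE 0.18, 95% interval -0.06 to 0.75) on the log2(FPKM + 1) scale did not pass the test (limma, adjusted p = 0.962). HSPB2, a muscle-type member, had pubertal and prepubertal means of 5.20 ± 0.605 and 4.61 ± 1.32 FPKM (SD, n = 3 each).

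HSPB3, the other muscle-type small heat shock protein, was the member with the lowest p-value of the limma fit. It was at 0.696, 0.615 and 0.441 FPKM in pubertal and 0.877, 0.883 and 1.40 FPKM in prepubertal libraries. No pubertal library reached the prepubertal range. The difference was -0.37 (SE 0.14, 95% interval -0.69 to -0.05) on the log2(FPKM + 1) scale, where changes at so low a level come out too small (limma, adjusted p = 0.893). It no longer passed the unadjusted threshold without pubertal replicate 2, pubertal replicate 3 or prepubertal replicate 3, where the difference was -0.38, -0.30 and -0.25.

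Among the 43 J domain genes, DNAJA1, a cytosolic partner of HSPA8, was the most abundant at 318, 251 and 227 FPKM in pubertal and 297, 296 and 271 FPKM in prepubertal libraries. DNAJB6, which keeps polyglutamine proteins from aggregating, was at 213, 165 and 153 FPKM in pubertal and 221, 189 and 189 FPKM in prepubertal libraries. In both genes the pubertal replicates 2 and 3 were the lowest libraries. DNAJA2, a further cytosolic partner, had means of 139 ± 22.6 and 151 ± 9.82 FPKM, and DNAJA4 of 48.2 ± 9.84 and 52.9 ± 1.47 FPKM (pubertal and prepubertal, SD, n = 3 each).

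DNAJC6, the neuronal auxilin that brings HSPA8 to clathrin coats, was at 166, 145 and 132 FPKM in pubertal and 157, 151 and 163 FPKM in prepubertal libraries. DNAJC5, the cysteine string protein of synaptic vesicles, was at 75.6, 88.7 and 69.4 FPKM in pubertal and 87.5, 82.3 and 85.6 FPKM in prepubertal libraries. Both had overlapping stages. DNAJB2, a J domain protein enriched in neurons, had means of 135 ± 17.3 and 133 ± 13.0 FPKM (SD, n = 3 each), and DNAJC8, a component of the splicing machinery, had means of 110 ± 9.79 and 119 ± 2.85 FPKM.

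DNAJC10, also called ERdj5, a disulfide reductase of the endoplasmic reticulum that works with HSPA5, was the second member that passed the unadjusted threshold. It was at 52.8, 46.6 and 48.0 FPKM in pubertal and 56.4, 61.0 and 55.4 FPKM in prepubertal libraries. The stages did not overlap, and the gap between the nearest libraries was smaller than the spread within either group. The difference was -0.23 (SE 0.087, 95% interval -0.43 to -0.03) on the log2(FPKM + 1) scale (limma, adjusted p = 0.906). Leaving out pubertal replicate 1 kept the unadjusted call (-0.28), and leaving out any other single library lost it, with differences between -0.25 and -0.18. The call was also lost without the trend in the limma fit.

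Of the 62 tested members, HSPA8, HSPB3 and DNAJC10 were the 3 whose stages did not overlap, all with the pubertal libraries below. Among all genes tested the stages did not overlap for 9.75%, with the pubertal libraries above in 5.91% and below in 3.84%. The fitted difference was below 0 for 45 members and above 0 for 17. Among all 16397 genes tested it was below 0 for 8237 and above 0 for 8160. The members' median was -0.05 against 0.00 for all genes on the log2(FPKM + 1) scale. After quantile normalization the difference was below 0 for 41 of 62 members, and the median of -0.02 equalled that of all genes to 2 decimals. The number below 0 was 35 of 63 without pubertal replicate 3, with a median of -0.02, and 45 of 63 without pubertal replicate 1, with a median of -0.12.

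**Figure D2:**
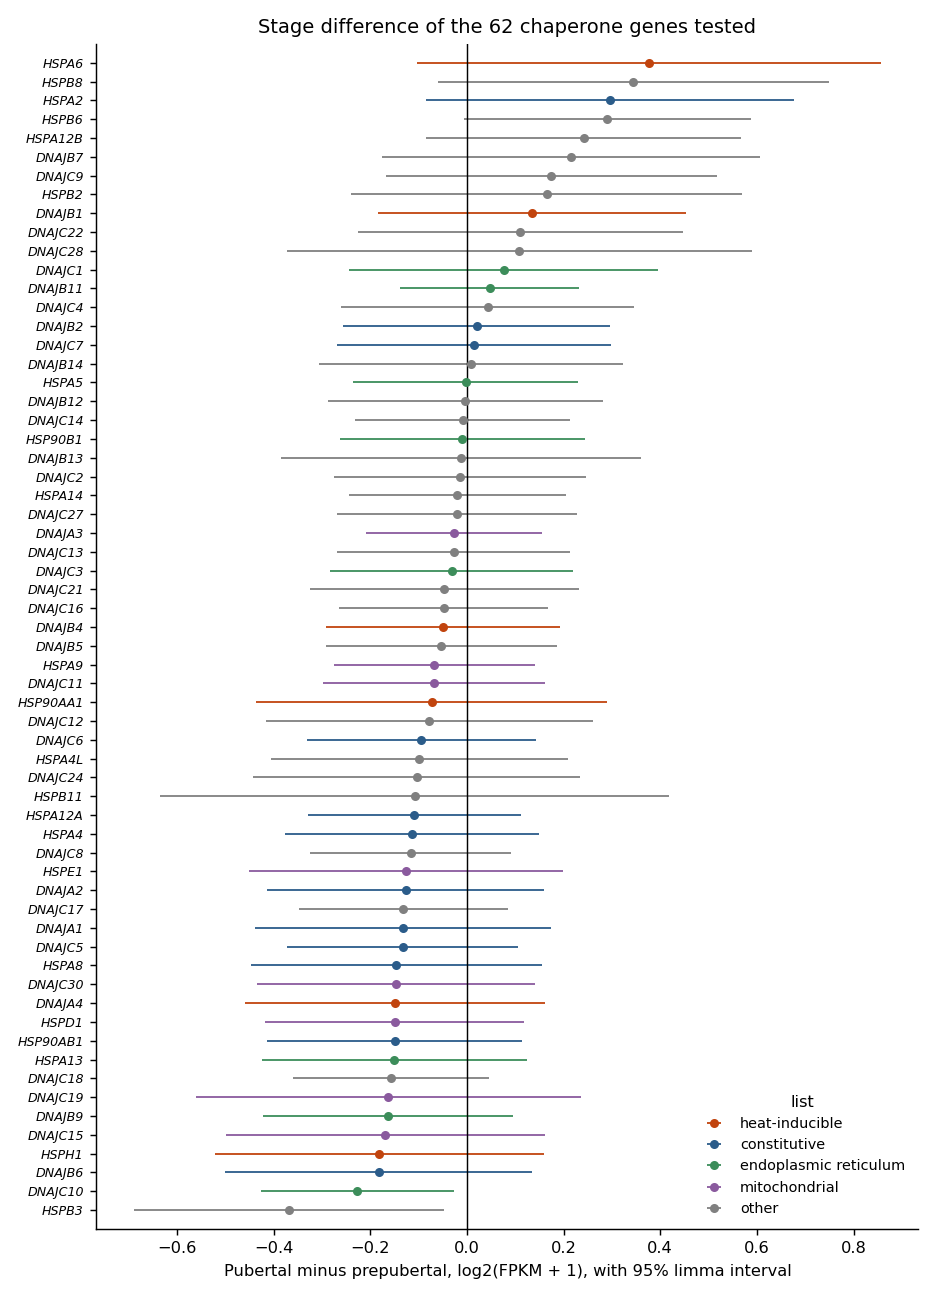
Difference between the stages for the 62 tested members, pubertal minus prepubertal on the log2(FPKM + 1) scale, with the 95% interval of the limma fit, sorted by size and coloured by the list a gene belongs to. The intervals of HSPB3 (-0.69 to -0.05) and DNAJC10 (-0.43 to -0.03) are the 2 that do not reach 0.

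The comparison of inducible with constitutive genes rested on lists of gene names. Of 9 heat-inducible genes named, HSPA6, HSPH1, HSP90AA1, DNAJB1, DNAJB4 and DNAJA4 were members and were tested, and limma called 0 of 6 at an unadjusted p under 0.05 and 0 after adjustment. The constitutive list held 12 genes, HSPA8, HSPA2, HSPA4, HSPA12A, HSP90AB1, DNAJA1, DNAJA2, DNAJB2, DNAJB6, DNAJC5, DNAJC6 and DNAJC7, and limma again called 0 at both thresholds. The median difference was -0.06 for the heat-inducible and -0.12 for the constitutive genes on the log2(FPKM + 1) scale, and after quantile normalization they were 0.00076 and -0.07. Without pubertal replicate 1 these medians were -0.17 and -0.19, and without pubertal replicate 3 they were -0.0017 and -0.03. Without pubertal replicate 2 the heat-inducible median was -0.02. DNAJB1, the HSP40 that is induced together with HSPA1A, was at 33.7, 40.8 and 28.3 FPKM in pubertal and 31.1, 33.5 and 28.0 FPKM in prepubertal libraries. DNAJB4, its close relative, was at 71.9, 55.9 and 62.5 FPKM in pubertal and 65.2, 68.2 and 62.7 FPKM in prepubertal libraries. The groups of both genes overlapped.

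Summed over genes, the heat-inducible list made up 36.2, 33.0 and 33.5% of the FPKM of both lists in the pubertal libraries and 33.2, 32.7 and 34.4% in the prepubertal ones. The mean shares of 34.2 ± 1.70% and 33.4 ± 0.889% (SD, n = 3 each) overlapped, and pubertal replicate 1 alone lay above every other library. Their difference of 0.81 percentage points became -0.16 without that library. HSP90AA1 supplied 79.2 to 82.8% of the heat-inducible sum. Without HSP90AA1 the share was between 8.26 and 9.30%, again with overlapping stages. The median level of the heat-inducible list was 50.1 to 65.7 FPKM in single libraries, against 119 to 151 FPKM for the constitutive list. Both the share and the level depend on the list. With a wider inducible list, which adds HSPA8, HSP90AB1, DNAJA1, HSPD1, HSPE1 and HSPB8, the share was 81.2 to 82.0%, the difference between the stages was -0.16 percentage points, the median level was 86.4 to 114 FPKM, and the median difference was -0.13 on the log2(FPKM + 1) scale.

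By compartment, 1 of 8 endoplasmic reticulum members passed the unadjusted threshold, which was DNAJC10. Over all genes the rule called 5.16%, and 1.65% as lower. The median difference of these 8 was -0.02 on the log2(FPKM + 1) scale, and between -0.12 and -0.0020 when 1 library was left out, the ends being reached without pubertal replicate 1 and prepubertal replicate 2. It was -0.06 without prepubertal replicate 1, and -0.01 without pubertal replicate 3 or prepubertal replicate 3. DNAJB9, or ERdj4, a target of the unfolded protein response, was at 75.7, 58.0 and 59.1 FPKM in pubertal and 71.7, 71.0 and 71.9 FPKM in prepubertal libraries. Its prepubertal values were nearly equal, and the pubertal ones lay on both sides of them. DNAJB11, or ERdj3, was at 24.6 to 27.0 FPKM over all libraries. Of the 8 mitochondrial members limma called 0 at an unadjusted p under 0.05 and 0 after adjustment. All 8 had a fitted difference below 0, from -0.17 for DNAJC15 to -0.03 for DNAJA3. The difference was below 0 for 8237 of the 16397 genes tested. It was also below 0 for all 8 subunit genes of the cytosolic chaperonin TRiC, all 4 DNAJA genes and the 4 neuronal markers found. It was above 0 for 2 of the 8 endoplasmic reticulum members. The mitochondrial median was -0.14, and it stayed below 0 after quantile normalization (-0.10). It was -0.21 without pubertal replicate 1, -0.07 without pubertal replicate 2 and -0.06 without pubertal replicate 3. DNAJC19, a J domain protein of the import motor of the inner membrane, was at 70.0, 43.7 and 46.4 FPKM in pubertal and 62.2, 52.5 and 61.4 FPKM in prepubertal libraries.

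The pubertal libraries were spread more widely than the prepubertal ones. Pubertal replicate 1 was the highest library for 28 of 62 members (45.2%) and for 22.9% of all genes tested. Pubertal replicate 2 or 3 was the lowest for 44 of 62 members (71.0%) and for 40.9% of all genes. The median deviation of the members from each gene's mean was 0.14, -0.07 and -0.15 in pubertal replicates 1 to 3 and 0.06, 0.03 and 0.02 in prepubertal replicates 1 to 3, on the log2(FPKM + 1) scale, while the medians of all genes lay between -0.01 and 0.01. The SD was larger in the pubertal than in the prepubertal group for 53 of 62 members (85.5%) and for 68.2% of all genes. The members' share of the summed FPKM of all genes gave another order, with 0.609, 0.755 and 0.606% in pubertal and 0.479, 0.827 and 0.666% in prepubertal libraries.

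**Figure D3:**
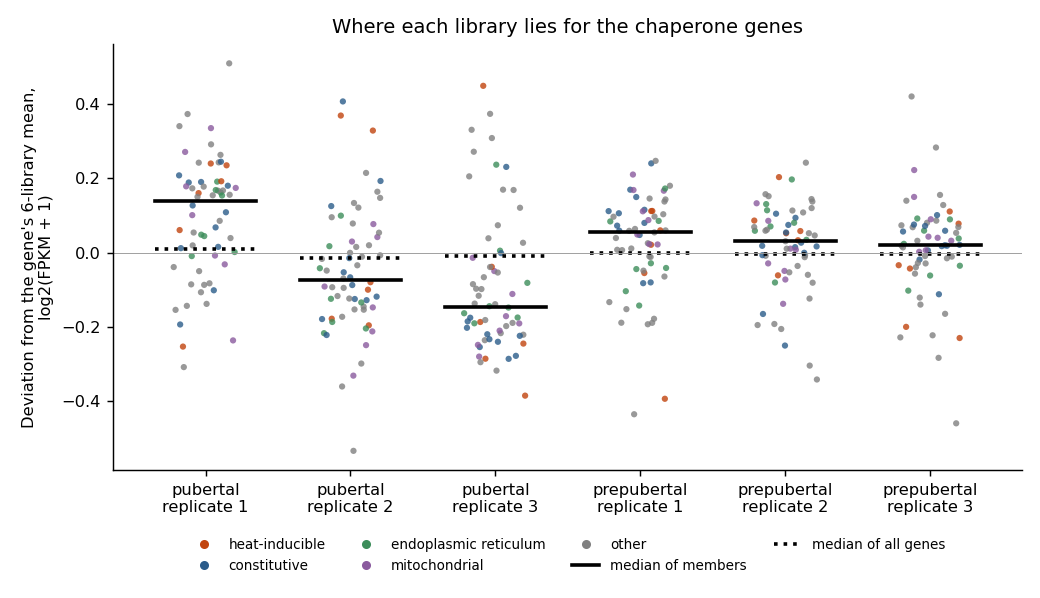
Deviation of each tested member from its own mean over the 6 libraries, on the log2(FPKM + 1) scale, by library and coloured by list. Solid lines give the median of the members and dotted lines the median of all genes. The members' median is 0.14 in pubertal replicate 1 and -0.15 in pubertal replicate 3, while the prepubertal medians lie between 0.02 and 0.06.

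The 8 subunit genes of TRiC, the cytosolic chaperonin, had median deviations of 0.10, -0.07 and -0.21 in pubertal replicates 1 to 3, and all 8 were lowest in pubertal replicate 3. The summed level of the 4 neuronal markers found was 1184, 1033 and 965 FPKM in pubertal and 1094 to 1208 FPKM in prepubertal libraries, a sum carried by SNAP25, STMN2 and SYT1. RBFOX3, at 0.422, 0.642 and 0.748 FPKM in pubertal and 0.550 to 0.952 FPKM in prepubertal libraries, was lowest in pubertal replicate 1 and did not share this order. In tissue RNA, fewer cells of a type and less RNA per cell cannot be told apart. The part of the neuronal markers in the order of the libraries was not tested.

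Without pubertal replicate 1, 23 of 63 tested members had an unadjusted limma p under 0.05, 4 higher and 19 lower in pubertal goats, and 0 passed after adjustment. The same fit called 13.5% of all genes, 5.99% as higher and 7.55% as lower. Among the 19 were DNAJB9 (-0.29, SE 0.061), HSPD1 (-0.28, SE 0.062), DNAJA4 (-0.31, SE 0.071) and, by its gene identifier, HSPE1 (-0.29, SE 0.073), each with an adjusted p = 0.291. HSPA6 (0.60, SE 0.16, adjusted p = 0.292), HSPA2 (0.47), HSPB6 (0.39) and HSPA12B (0.35) were the 4 that were higher. Leaving out pubertal replicate 2, pubertal replicate 3 or prepubertal replicate 2 gave 1 called member each, where the fits called 6.95, 4.03 and 4.36% of all genes. Leaving out prepubertal replicate 1 gave 2 (3.06% of all genes), and leaving out prepubertal replicate 3 gave 0 (4.29%).

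Of the 17 members with a fitted difference above 0, HSPB6, HSPA12B and HSPA2 were picked out after their values were seen. HSPB6, or HSP20, which takes part in the relaxation of smooth muscle, was at 0.914, 1.30 and 1.39 FPKM in pubertal and 0.752, 0.933 and 0.698 FPKM in prepubertal libraries (difference 0.29, SE 0.13, 95% interval -0.01 to 0.59). HSPA12B, an atypical HSP70 of endothelial cells, was at 6.88, 8.06 and 9.99 FPKM in pubertal and 6.63, 6.41 and 7.39 FPKM in prepubertal libraries. HSPA2, an HSP70 best known from the testis, was at 3.78, 6.24 and 5.41 FPKM in pubertal and 4.16, 3.60 and 4.06 FPKM in prepubertal libraries. All 3 had overlapping stages and pubertal replicate 1 as the lowest pubertal library, and none passed the test.

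Limma called 3 of 6 smooth muscle and pericyte, 4 of 5 leptomeningeal and 1 of 4 endothelial markers at the unadjusted threshold. So it did for 2 of 5 microglial, 1 of 5 astrocyte and 2 of 6 anterior pituitary markers. All of the called markers were higher in pubertal goats, and 0 passed after adjustment. The difference was below 0 for 2 of 5 microglial, 2 of 5 astrocyte and 1 of 6 anterior pituitary markers. It was above 0 for every smooth muscle and pericyte, leptomeningeal and endothelial marker. The called microglial markers were C1QA and C1QB, and the microglial sums overlapped, at 233 to 280 FPKM in pubertal and 210 to 253 FPKM in prepubertal libraries. The rule called 5.16% of all genes, 3.51% as higher. Summed, the 6 smooth muscle and pericyte markers were at 117, 111 and 340 FPKM in pubertal and 72.7 to 89.1 FPKM in prepubertal libraries. All 6 had stages that did not overlap, against 9.75% of all genes. The sum of 5 leptomeningeal markers was 132, 109 and 260 FPKM against 41.8 to 81.4 FPKM, and that of the 4 endothelial markers found was 25.7 to 36.5 FPKM against 21.0 to 29.0 FPKM. The sum of 6 anterior pituitary markers, mostly CGA, was 52.8 to 66.0 FPKM against 3.75 to 20.9 FPKM. Ependymal markers lay the other way, with 2 of 5 called lower at the unadjusted threshold and sums of 74.7 to 84.8 FPKM in pubertal and 87.8 to 101 FPKM in prepubertal libraries. The choroid plexus gene TTR reached 309 FPKM in pubertal replicate 3 and was at 1.14 to 53.4 FPKM elsewhere. No marker of these lists was at 0 in all libraries, and GH1 was above 0 in pubertal replicate 3 alone. Their part in the levels of HSPB6, HSPB8, HSPA2 and HSPA12B was not tested.

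**Figure D4:**
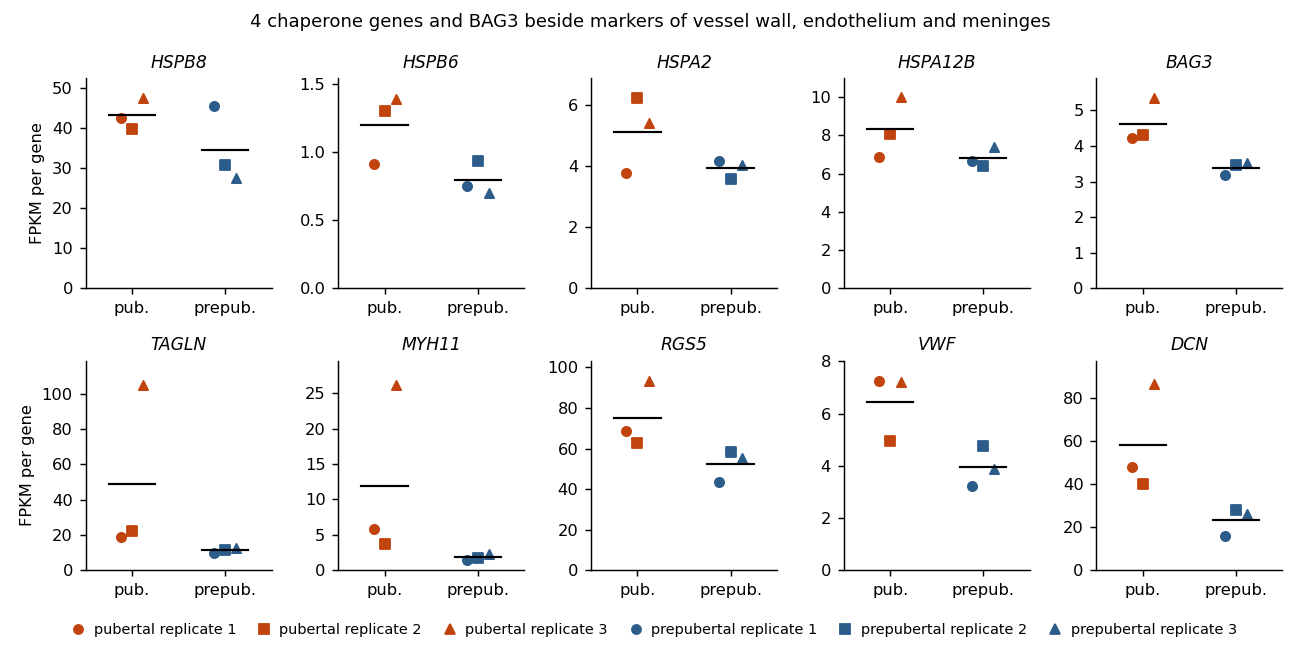
FPKM per gene in each library for HSPB8, HSPB6, HSPA2, HSPA12B and the co-chaperone BAG3 in the upper row, and for the smooth muscle and pericyte markers TAGLN, MYH11 and RGS5, the endothelial marker VWF and the meningeal marker DCN in the lower row. Points are libraries, bars are group means, and every axis starts at 0. TAGLN, MYH11, RGS5 and DCN are highest in pubertal replicate 3, as are HSPB8, HSPB6, HSPA12B and BAG3. VWF is highest in pubertal replicate 1 (7.24 against 7.19 FPKM) and HSPA2 in pubertal replicate 2. Prepubertal replicate 1 is the lowest library for every marker shown and for BAG3. The markers shown are ones that passed the unadjusted threshold. Of the markers of these lists not shown, ACTA2 (11.6 FPKM) and CNN1 (1.38 FPKM) were lowest in prepubertal replicate 3, the rest in prepubertal replicate 1. FLT1 was highest in prepubertal replicate 2 (9.57 FPKM). For HSPB8 it is exceeded only by pubertal replicate 3 (45.4 against 47.4 FPKM), and HSPB6, HSPA2 and HSPA12B are lowest in other prepubertal libraries.

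At the level of single transcripts, 50 members had 1 transcript in the table and 16 had more. Of 96 member transcripts, 86 were tested and 2 passed the unadjusted threshold, both lower in pubertal goats, while the rule called 4.87% of all transcripts, 2.87% as higher and 2.0% as lower. These 2 were the single transcript of DNAJC10 and the 953 nt transcript of HSPB3, which was at 0.304, 0.455 and 0.307 FPKM in pubertal and 0.658, 0.749 and 0.763 FPKM in prepubertal libraries. The second transcript of HSPB3, of 1193 nt, was at 0.13 to 0.64 FPKM with overlapping stages. In 9 of the 16 genes 1 transcript made up over 80% of the level on average.

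HSPA5 was an extreme case, since all of its FPKM stood under a transcript of 2521 nt while one of 1968 nt was listed at 0 throughout. HSPA14, a ribosome-associated HSP70, had 10 transcripts in the table, of which the most abundant made up 67.4%. DNAJC24, which takes part in the diphthamide modification of elongation factor 2, divided its level most evenly, with 50.9% and 42.1% on its main transcripts. How the fragments were assigned to such similar transcripts limits these shares.

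**Figure D5:**
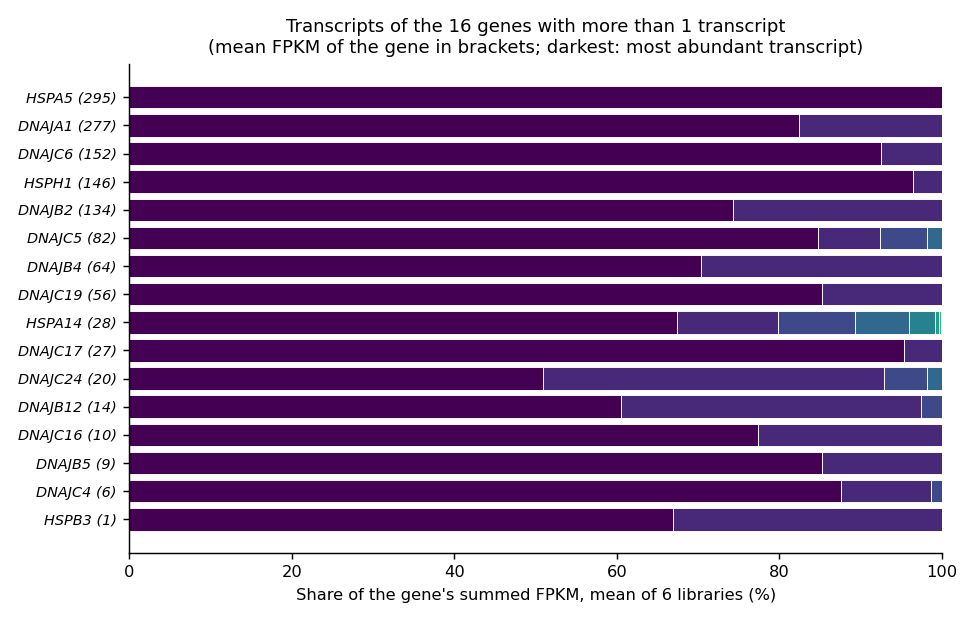
Share of each transcript in the summed FPKM of its gene, as the mean of the 6 libraries in percent, for the 16 members with more than 1 transcript, sorted by the mean FPKM of the gene. The darkest segment is the most abundant transcript, which makes up 100% in HSPA5, 67.4% in HSPA14 and 50.9% in DNAJC24.

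Genes that regulate or assist these chaperones were examined by name. Of 30 regulators and co-chaperones, limma called 2 at an unadjusted p under 0.05, 1 in each direction, against 5.16% of all genes. BAG3, which links HSP70 and HSPB8 to autophagy, was at 4.21, 4.32 and 5.36 FPKM in pubertal and 3.19, 3.47 and 3.52 FPKM in prepubertal libraries, with stages that did not overlap (0.35, SE 0.12, adjusted p = 0.870). BAG2, a nucleotide exchange factor that blocks the ubiquitin ligase STUB1, was at 21.6, 20.7 and 19.3 FPKM in pubertal and 20.4, 32.0 and 30.0 FPKM in prepubertal libraries, so that prepubertal replicate 1 lay among the pubertal ones (-0.38, SE 0.16, adjusted p = 0.958). The call of BAG3 was lost without pubertal replicate 3 (0.26) or prepubertal replicate 1 (0.32), and when each library was centred on the members' median. That of BAG2 was lost without any single library other than prepubertal replicate 1, with no minimum, without a trend and with the members' centring.

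HSF1, the master regulator of the heat shock response, was at 5.08, 6.38 and 4.98 FPKM in pubertal and 5.17, 4.55 and 4.73 FPKM in prepubertal libraries. The stages overlapped. HSF2, its relative in development, was at 32.9, 31.3 and 29.6 FPKM in pubertal and 33.2, 37.0 and 34.0 FPKM in prepubertal libraries, and every pubertal library lay below every prepubertal one without passing the test (-0.15, SE 0.087, adjusted p = 0.962). CRYAB, a small heat shock protein of glia whose symbol is outside the rule, was at 116 to 170 FPKM over all libraries.

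Limma called 0 of the 8 TRiC subunits, 0 of 14 genes of the unfolded protein response and 0 of the cold-inducible genes CIRBP and RBM3, at an unadjusted p under 0.05 as well as after adjustment. The median difference was -0.13, 0.03 and 0.07 in these lists. The immediate early genes, which respond within minutes to neuronal activity, were the exception. Of these, 7 of 10 were called at the unadjusted threshold, all higher in pubertal goats, against 3.51% of all genes. After adjustment 0 were called. FOS was at 26.8, 31.9 and 19.0 FPKM in pubertal and 14.0, 13.9 and 11.1 FPKM in prepubertal libraries (0.92, SE 0.18, adjusted p = 0.660). NR4A1 (0.98, SE 0.16, adjusted p = 0.318) and DUSP1 (0.77, SE 0.18, adjusted p = 0.729) also had stages that did not overlap. Over all 64 genes of these lists, 9 were called, 8 higher and 1 lower, so that 7 of the 9 were immediate early genes. Among all genes tested 5.16% were called.

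The study assigned neighbouring coding genes to its lncRNA loci, and some of these neighbours are members. XLOC_1101518, beside DNAJB2, was at 5.60, 6.31 and 6.40 FPKM in pubertal and 10.9, 7.05 and 6.98 FPKM in prepubertal libraries. Its stages did not overlap, and the share of all lncRNAs without overlap was not determined. The study, which tested transcripts with Cuffdiff, names DNAJB2 as a differentially expressed target. Summed per gene, DNAJB2 had overlapping stages here and a difference of 0.02 (SE 0.12) on the log2(FPKM + 1) scale (limma, adjusted p = 0.995). The study's threshold was a P under 0.05 per transcript, which is another measure. By single transcript, the 2 of DNAJB2 had overlapping stages and an unadjusted limma p of 0.476 and 0.919. The loci beside HSPA8, HSPA12B and DNAJC16 were at 0 to 1.04 FPKM with overlapping stages.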

How the data were processed

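The authors aligned the reads with TopHat and quantified transcripts with Cufflinks 2.1.1. The FPKM values per transcript and library were deposited by the authors, normalized for transcript length and mapped fragments. The genome build is not given in the sources used here. FPKM hold no counts, so read depth is unknown from the files and no counting interval can be given. The authors' comparison (group FPKM, fold changes, p-values and q-values) served only to link transcripts to genes and to give transcript lengths. Of the columns per sample, 0 were left unused.

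FPKM were summed per gene identifier. Symbols came from NCBI RefSeq (ARS1.2) and matched 94.4% of the genes. Of 96 member transcripts, 53 had an accession in that table. Genes with a mean of at least 0.1 FPKM were tested on log2(FPKM + 1) with limma 3.58.1 in R 4.3.3 (lmFit, eBayes with a trend, two-sided), Benjamini-Hochberg adjustment and a threshold of 0.05, after a test on simulated data. Tables and plots were made in Python 3.11.15 with pandas 2.3.3, numpy 2.4.6 and matplotlib 3.10.9.

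The symbol rule uses no value, but the set of members and the lists were chosen with earlier results of these data known. Genes were named if heat-inducible, among the 3 most abundant of a family, members of a compartment list where it is described, or past the unadjusted threshold. Of other pathway genes, HSF1, HSF2, BAG3, CRYAB and up to 3 called per direction were named. HSPB6, HSPA2, HSPA12B, DNAJC24, HSPA14 and the cell markers with values were named after values were seen. Alternatives were other pseudocounts (0.1), minimums, scalings, a replicate block, single transcripts, a wider inducible list and leaving out each library. No sequences were examined.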

Additional observations from a re-analysis of the deposited data

How the results depend on the processing

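Values per goat rest on 3 libraries a stage, and without read counts the precision of weakly expressed members such as HSPB3 and HSPA6 is not known. Instead of 2, the number of members called was 1 with a minimum of 1 FPKM, with each library centred on the members' own median, and among members with 1 transcript. Instead of 2, the number of member transcripts called was 1 with a pseudocount of 0.1 and without a trend. The minimum of 1 FPKM and the restriction to 1 transcript each remove HSPB3 by construction, and the cause of the other changes was not tested. With no minimum 3 members were called, HSPB6 in addition, and without a trend the 2 were HSPB3 and HSPB6. With the replicate block 1 member and 1 member transcript were called. In that fit HSPA6 passed the unadjusted threshold while HSPB3 and DNAJC10 did not. The correlations of deviations between libraries with the same replicate number were -0.025, -0.10 and 0.075. Between libraries with other numbers they ran from -0.12 to 0.16. These values cannot tell whether the numbers pair the goats. Leaving out 1 library at a time gave 0 to 23 members, 0 to 22 member transcripts and 5 to 12 pathway genes called, and 0 members after adjustment in each case. The 22 transcripts were called without pubertal replicate 1, where the fit called 10.5% of all transcripts.

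After quantile normalization the difference turned to 0.0052 for DNAJB4, 0.058 for HSP90B1 and 0.068 for HSPA5. Centring on the members' median turned it to 0.0040 for HSP90B1 and 0.011 for HSPA5. The most abundant transcript of DNAJB2 gave -0.013. Leaving out single libraries moved the difference between -0.20 and 0.065 for CRYAB, -0.072 and 0.11 for DNAJB2, -0.14 and 0.036 for DNAJB4, -0.21 and 0.031 for HSP90AA1, -0.11 and 0.070 for HSP90B1, -0.053 and 0.071 for HSPA5, and -0.39 and 0.13 for HSPB11. The value of -0.39 for HSPB11, without pubertal replicate 1, passed the unadjusted threshold (limma, adjusted p = 0.304). None of these values passed after adjustment. Over 38 named genes, 550 of 568 values under alternatives kept their direction. Centring on the members' median, HSPE1 by its accession, HSP70.1 among the heat-inducible genes and members with 1 transcript only were alternatives chosen after seeing the data.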
